A study of Mus musculus with 2 samples.

Results

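Nuclear genes of oxidative phosphorylation were examined in ES-E14, a mouse embryonic stem cell line. The genes were taken by symbol from the gene tables: the Nduf genes of complex I, Sdha to Sdhd of complex II, the Uqcr genes and Cyc1 of complex III, Cycs, the Cox4 to Cox8 genes of complex IV and the Atp5 genes of complex V. The rule gave 86 protein-coding nuclear genes of 42462 annotated genes in the tables, of which 21461 were nuclear and protein-coding. Complex I had 35 of them, complex II 4, complex III 9, complex IV 20 with Ndufa4 and its relative counted there, complex V 17, and cytochrome c 1. One further gene ID that the symbols match in the annotation, a second Atp5o entry, was not in the tables used here.

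Oxidative phosphorylation is the route by which mitochondria make most of the ATP of a resting cell. Complexes I and II pass electrons from NADH and succinate to ubiquinone, complex III hands them to cytochrome c, complex IV to oxygen, and complex V, the ATP synthase, uses the proton gradient so built. Most subunits are encoded in the nucleus and a small catalytic core in mitochondrial DNA. Several subunits of complex IV exist as paralogs that are known for muscle, lung or testis, and pluripotent stem cells are known for relying strongly on glycolysis.

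Total RNA had been sequenced in 2 libraries of 1 group, untreated as far as the labels say, from the male 129/Ola line. The labels number them as biological replicates 1 and 2 but cite the same source biosample, so their spread may be no more than technical. The gene rows summed to 43163300 and 45573500 expected counts, and replicate values here and throughout are given in the order replicate 1, replicate 2. All 10 markers of embryonic stem cells were detected, against 6 of 10 for feeder fibroblasts, 1 of 10 each for striated muscle and spermatogenic cells, and 0 of 10 for blood. With 1 group the design allows no comparison between conditions. The questions were how the subunit genes stand within and between complexes, which paralogs were used, and how far the libraries differed.

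Levels are given in TPM, the length-corrected share of transcripts in a library, and a gene was called detected at 1 TPM or more in both libraries. ES-E14 cells expressed nearly the whole set: 80 of 86 genes (93.0%) were detected, against 46.3% of nuclear protein-coding genes. At a mean of 100 TPM or more stood 19 of 86 (22.1%), against 1.31%. The 6 genes not detected were Cox4i2, Cox6a2, Cox7b2, Cox8b, Cox8c and Atp5s. Nuclear protein-coding genes held 186567 and 228891 TPM of each library's total. With TPM rescaled to those genes, 83 of 86 passed the same limit. Together the 86 genes held 3.24% and 2.98% of nuclear protein-coding TPM, but 1.25% and 1.15% of the expected counts. Their rows were short, with a median length of 704 bases against 2284 for detected protein-coding genes. Being bulk libraries, they cannot tell fewer cells using a gene from less RNA per cell.

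The median level by complex was lowest for complex II, and the mean of both libraries was highest for complex V while complex IV counted its tissue-specific paralogs. It was 26.7 and 34.4 TPM for complex II (30.6 ± 5.43, SD, n = 2 libraries) and 40.9 and 44.2 TPM for complex I (42.6 ± 2.29). Complex III stood at 59.3 and 72.3 TPM (65.8 ± 9.19), complex IV at 60.3 and 72.5 (66.4 ± 8.59) and complex V at 56.9 and 92.5 (74.7 ± 25.2). The library values of complexes III, IV and V overlapped, so these did not differ beyond the spread between libraries, while both values of complexes I and II lay below all of theirs. Complexes I and II did not overlap each other. The 8 paralogs listed as tissue-specific were Cox4i2, Cox6a2, Cox6b2, Cox7a1, Cox7b2, Cox8b, Cox8c and Ndufa4l2, the last of which is known as hypoxia-induced. Without them, complex IV stood at 155.7 and 172.1 TPM (163.9 ± 11.6), above both values of complex V. All 8 had a lower mean TPM than the rest of complex IV, so leaving them out could only raise its median. The median over detected protein-coding genes was 5.76 and 6.80 TPM.

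**Figure D1:**
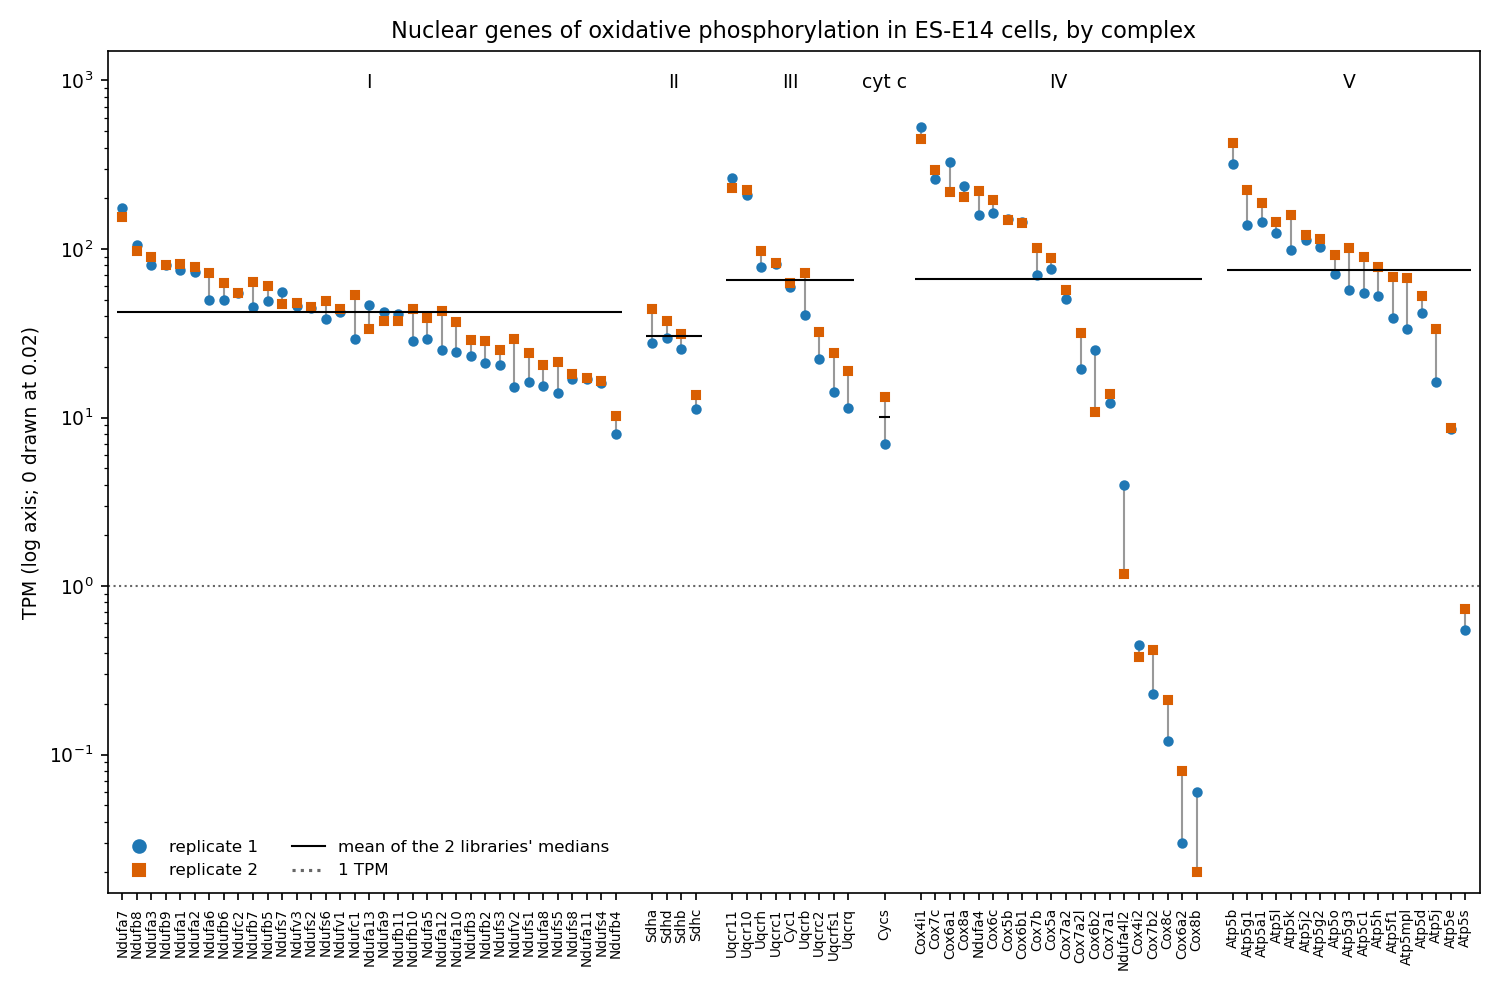
TPM of each of the 86 genes on a log axis, by complex, with blue circles for replicate 1, orange squares for replicate 2 and a black line for the mean of the medians in both libraries. The genes under the dotted line at 1 TPM are 5 of complex IV and Atp5s of complex V.

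Complex I, which oxidises NADH, was measured through 7 core and 28 accessory subunit genes, all 35 detected. The core subunits carry the cofactors of electron transfer, and their median was 20.4 and 29.1 TPM, against 41.6 and 45.99 TPM for accessory subunits. The highest core gene was Ndufs7, an iron-sulphur subunit, at 55.78 and 47.35 TPM, and the lowest was Ndufs8, another one, at 16.93 and 18 TPM. The highest accessory genes were Ndufa7 at 174.89 and 153.79 TPM, Ndufb8 at 106.18 and 97.83 TPM, and Ndufa3 at 80.46 and 89.96 TPM. The ranges of these 3 did not overlap one another. The lowest were Ndufs4, which is known from gene loss that causes an encephalopathy in mice, at 16.06 and 16.51 TPM, and Ndufb4 at 8.02 and 10.24 TPM. The value of Ndufb4 is uncertain, since another row of the table has the same coding bases.

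Complex II, succinate dehydrogenase, also works in the citric acid cycle and is the only complex here with no mitochondrially encoded subunit. Its flavoprotein gene Sdha stood at 27.81 and 43.80 TPM, and the membrane anchor gene Sdhd at 29.62 and 37.55 TPM. The iron-sulphur subunit gene Sdhb stood at 25.66 and 31.27 TPM. These 3 overlapped across libraries, though Sdhb was the lowest of the 3 in each. The other anchor gene, Sdhc, was below them in both libraries at 11.31 and 13.53 TPM.

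In complex III the small subunit genes Uqcr11 and Uqcr10 led, at 262.01 and 230.22 TPM and at 210.37 and 222.79 TPM. The next was Uqcrh, the hinge protein that contacts cytochrome c1, at 77.86 and 97.08 TPM. Cyc1, which encodes cytochrome c1 itself, stood at 59.33 and 62.83 TPM. The lowest were Uqcrfs1, which encodes the Rieske iron-sulphur protein, at 14.13 and 24.14 TPM, and Uqcrq at 11.40 and 18.79 TPM. Between the highest and lowest mean in complex III lay a factor of 16.3. Uqcr11 was above Uqcr10 in every pairing of library values. The lowest 2 genes overlapped across libraries, though Uqcrfs1 was above Uqcrq in each.

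Complex IV, cytochrome c oxidase, held the highest gene of the whole set as the rows stand. Cox4i1, a regulatory subunit that spans the membrane, had 527.31 and 451.45 TPM and lies at chr8:120668222-120674207 on the plus strand (GRCm38). A protein-coding gene on the same strand, Gm20388, overlaps it and held 1817.97 and 1508.51 expected counts against 23977 and 19409 for Cox4i1. Cox7c followed at 260.95 and 292.78 TPM and Cox6a1 at 328.06 and 216.56 TPM, so these overlapped. With the TPM of its copies added, Cox7c summed to 388.4 and 651.6 TPM, above Cox4i1 in replicate 2. Most of the added TPM was on the copy row Gm12338, with 126.28 and 355.13 TPM on 352.36 and 854.64 expected counts. All copies held 4.60% and 9.99% of the counts of Cox7c and its copies. The sum therefore rests on the TPM of a row with few reads, and is not a level of the pooled reads. The lowest detected members of complex IV were all paralogs, described below with their partners.

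In complex V the catalytic head is made of the alpha and beta subunits, present in several copies, around single gamma, delta and epsilon subunits. The beta gene Atp5b was the highest of the complex at 319.11 and 425.51 TPM, and the alpha gene Atp5a1 stood at 145.41 and 188.30 TPM. The gamma gene Atp5c1 had 54.72 and 89.41 TPM, the delta gene Atp5d 41.65 and 52.28 TPM, and the epsilon gene Atp5e 8.53 and 8.66 TPM. The ranges of alpha and beta did not overlap with each other or with those of gamma, delta and epsilon, whereas gamma and delta lay next to each other at 54.72 against 52.28 TPM. Atp5s, a gene named for a coupling factor that is not a structural subunit of the enzyme, was not detected at 0.55 and 0.73 TPM. Atp5k, a small membrane subunit, had 98.16 and 158.46 TPM.

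Cytochrome c, the soluble carrier between complexes III and IV, was represented by Cycs at 7 and 13.21 TPM. In each library that was below Sdhc, the lowest gene of complex II. With the TPM of its near-identical copies added, Cycs summed to 24.2 and 48.3 TPM, above Sdhc in both. The row of its main copy is shorter, with an effective length of 792.8 against 2315.51 bases in replicate 1, so its reads weigh more. Over all 86 genes ordered by mean TPM, 73 of 85 neighbouring pairs overlapped when values were set against each other across libraries. That rule also takes in the shift common to most genes between the libraries. It therefore does not show whether the order of close neighbours held within each library. Across the 80 detected genes the log2 TPM of the libraries had a Pearson r of 0.951 and a Spearman rho of 0.960, a description over genes that share both libraries.

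Of 8 paralog sets, each set with tissue forms was led by the ubiquitous paralog. In 5 sets the leading gene held over 90% of the set's TPM in both libraries. Cox4i1 held 99.9% in each, against Cox4i2, known from lung, at 0.45 and 0.38 TPM. Cox6a1 held 99.99% and 99.96%, and Cox6a2, the heart and skeletal muscle form, had 0.03 and 0.08 TPM. Cox7b held 99.7% and 99.6%, with Cox7b2 at 0.23 and 0.42 TPM. Cox8a, at 234.91 and 203.94 TPM, held 99.9% in each, while Cox8b, the muscle form of mice, had 0.06 and 0 TPM and Cox8c, known from testis, 0.12 and 0.21 TPM. Those low paralogs rested on between 0 and 20 expected counts. Ndufa4, at 159.74 and 221.96 TPM, held 97.6% and 99.5% beside Ndufa4l2, which is known as a hypoxia-induced gene.

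The remaining 3 sets were shared. Cox6b1 stood at 144.19 and 142.75 TPM and held 85.2% and 93.0%, because Cox6b2, known as the testis form, had 25.07 and 10.78 TPM. Of the spermatogenic markers only Tuba3a was detected, their summed level was 11.1 and 20.6 TPM, and the protamine genes Prm1 and Prm2 and Akap4 were at 0. Cox7a2 held 61.6% and 55.6% of its set at 50.71 and 56.73 TPM. Cox7a2l, which is known to take part in joining complexes III and IV, had 19.44 and 31.56 TPM. With the TPM of its near-identical copy Gm6969 added, Cox7a2l summed to 40.98 and 69.6 TPM, above Cox7a2 in replicate 2 only. The row of Gm6969 is short, with an effective length of 185.81 bases in replicate 1 against 921.8 for Cox7a2l. It held 18.3% and 19.3% of the pair's counts. Summed TPM weighs reads on a short row more, so the sum is not a level of the pooled reads. Cox7a1, the heart and skeletal muscle form, was detected at 12.14 and 13.81 TPM and held 14.8% and 13.5%. Of 10 striated muscle markers only Ttn was detected, at 1.98 and 4.61 TPM, and the summed level of the list was 4.48 and 9.37 TPM. The other muscle forms, Cox6a2 and Cox8b, were at or below 3 expected counts in each library.

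**Figure D2:**
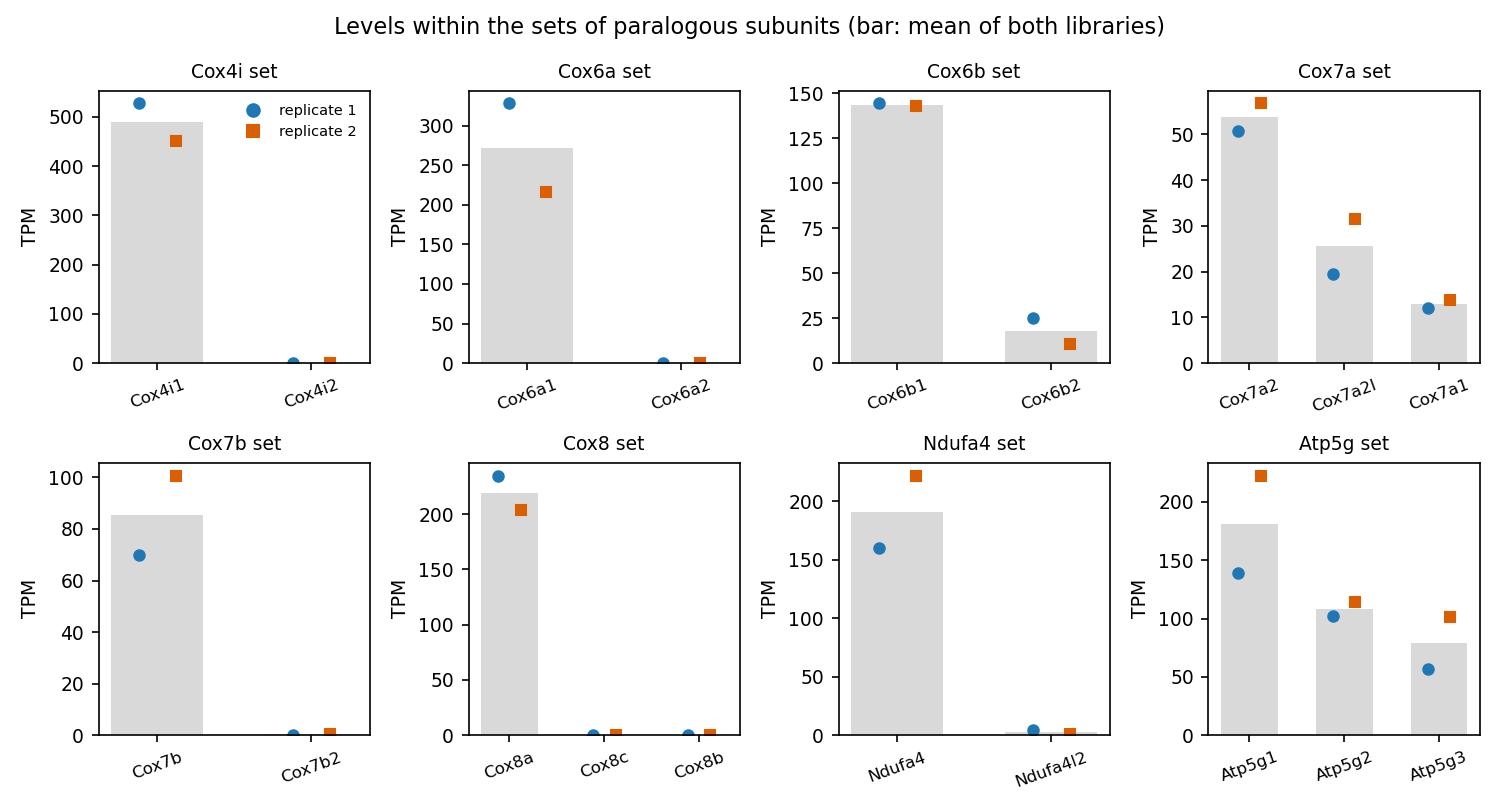
TPM within the 8 sets of paralogous subunits on linear axes from 0, with grey bars for the mean, blue circles for replicate 1 and orange squares for replicate 2. A single bar stands in the sets of Cox4i, Cox6a, Cox7b, Cox8 and Ndufa4, while Cox6b, Cox7a and Atp5g show more than one.

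The Atp5g set differs in kind, since its 3 genes are known to encode one and the same mature c subunit, the ring that turns in the membrane, behind different import sequences. Atp5g1 held 46.7% and 50.8% of the set at 139.32 and 222.66 TPM. Atp5g2 had 102.33 and 113.91 TPM and Atp5g3 56.87 and 101.54 TPM, so that the Atp5g1 row was above both in each library. With the TPM of near-identical copies added, Atp5g2 summed to 150.86 and 173.35 TPM and Atp5g1 to 150.28 and 244.49 TPM. On that sum Atp5g2 was just ahead in replicate 1. The copy row Gm10175 has an effective length of 432.8 bases in replicate 1 against 529.67 for Atp5g2. Its reads therefore weigh more in TPM, and the sum does not show the order of the pooled reads. Translating the coding sequences gave a shared run of 78 or more residues at the end of the 3 proteins, over a whole-protein identity of 71.6% to 77.9%. Pairs in the other sets were 31.9% to 62.2% identical. The last 75 coding bases are shown because they encode the same residues in 3 spellings, and the capitals mark the 20 positions at which at least 1 gene differs:
Atp5g1 coding end: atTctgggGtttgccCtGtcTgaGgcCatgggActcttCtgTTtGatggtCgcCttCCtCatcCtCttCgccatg
Atp5g2 coding end: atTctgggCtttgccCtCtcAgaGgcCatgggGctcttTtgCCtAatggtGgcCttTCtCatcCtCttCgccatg
Atp5g3 coding end: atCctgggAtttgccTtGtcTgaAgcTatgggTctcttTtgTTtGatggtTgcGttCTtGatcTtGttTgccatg
Their reads can therefore be told apart in this stretch.

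Rows with nearly the same sequence limit how far single genes can be measured. Another row of the annotation matched the coding sequence of 21 of 86 members at 95% identity or more over at least 80% of it, with 37 such copies, up to 6 for Atp5l. For 7 members the copies held over 5% of the expected counts of member and copies in both libraries. Ndufb4 and Ndufb4c, annotated as a processed pseudogene on chromosome 15, have the same 387 coding bases. Ndufb4c held 68.0% and 65.7% of the counts of that pair. The TPM of both rows summed to 66.18 and 74.52, beside 8.02 and 10.24 for Ndufb4 alone. The effective length in replicate 1 was 233.81 bases for Ndufb4c against 797.21 for Ndufb4, so a read on the copy weighs more in TPM. Cycs and Gm10053 share all 315 coding bases; the copy held 45.3% and 44.6% of the pair's counts, and the sum was 23.93 and 46.71 TPM. Atp5l and Gm10221 are identical over 309 coding bases, with 15.3% and 23.0% on the copy. Atp5g2 and Gm10175 are identical over 438, with 27.9% and 28.6% on the copy. Where reads come from cannot be told apart in identical stretches. The copy's row is shorter than the member's in these pairs and in those below, so summed TPM is not the level of the pooled reads.

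Ndufs5, an accessory gene of complex I at 13.98 and 21.33 TPM, differs from BC002163 on chromosome 16 at 2 of 318 coding bases. The copy held 54.6% and 49.2% of the pair's counts. The stretch with both differences is shown, with the differing bases in capitals:
Ndufs5 coding bases 46 to 105: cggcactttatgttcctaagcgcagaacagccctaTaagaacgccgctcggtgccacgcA
BC002163 coding bases 46 to 105: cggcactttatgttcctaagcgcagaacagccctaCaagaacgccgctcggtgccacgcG
The sum of the pair was 51.75 and 68.37 TPM. Ndufa12 and Cox7a2l had 22.1% and 14.98%, and 18.3% and 19.3%, of the counts of their pairs on a copy.

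**Figure D3:**
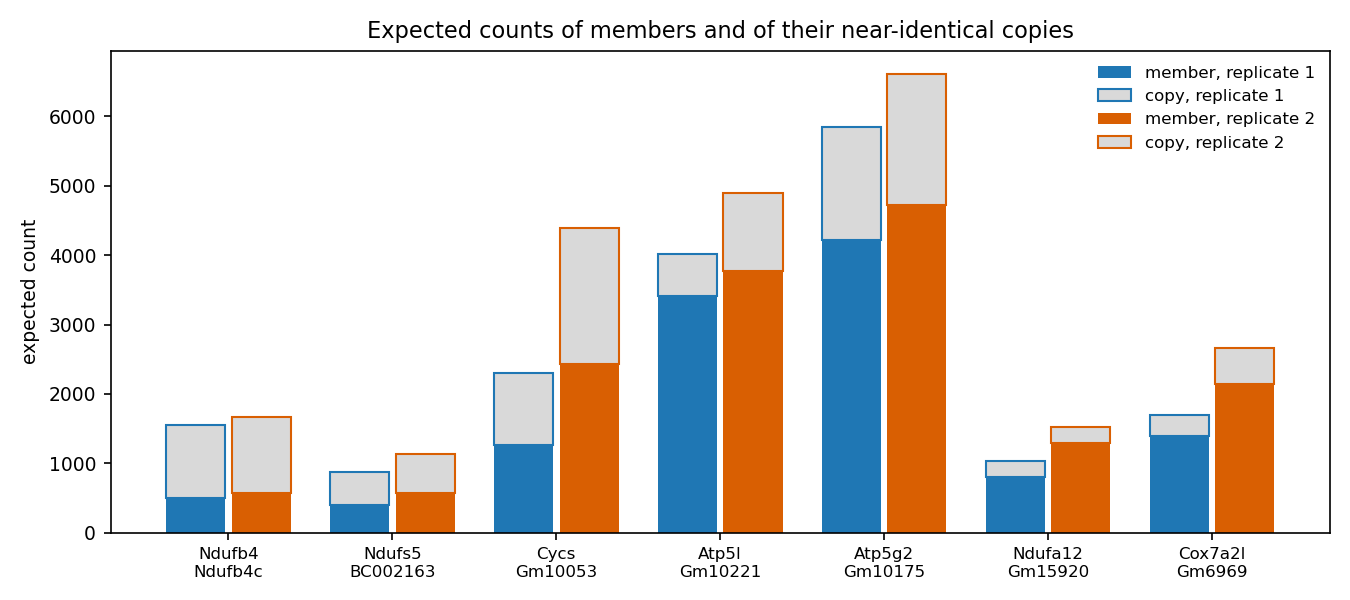
Expected counts of 7 members (filled) and of their near-identical copy (grey, stacked above) in replicate 1 (blue) and replicate 2 (orange), on a linear axis from 0. The grey part is larger than the filled part only for Ndufb4 in both libraries and for Ndufs5 in replicate 1.

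Most members were led by 1 transcript. Of the 56 detected members with several transcripts, 52 had the same leading transcript in both libraries, 54 a leading transcript annotated as protein-coding, and 23 one that held 90% or more of the gene's output. The authors' deposited percentages put the retained-intron transcript Cox6b2-205 first for Cox6b2, at 39.2% and 38.8%, next to the coding Cox6b2-203 at 39.0% and 36.4%, so their order is not resolved in replicate 1. Ndufa5, an accessory gene of complex I, was led by the processed transcript Ndufa5-204 in replicate 1, at 47.3% and 37.1%, and by the coding Ndufa5-202 in replicate 2, at 35.0% and 38.7%. In 14 detected members over 20% of the output, as a mean of both libraries, was on transcript types other than protein-coding. The highest share was that of Ndufa10 at 41.0% and 55.7%, mostly retained introns, and Atp5b, the highest gene of complex V, had 34.6% and 30.6%. These shares follow TPM, in which reads on short transcripts weigh more. By expected counts the coding Ndufa10-201 held 2088.89 and 2237 of the gene's 2589 and 3016. The coding Atp5b-201 held 28516 and 38417.8 of 32108 and 41964. Total RNA holds unspliced RNA, and its part in these shares was not tested.

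The difference between the libraries in these genes depended on the scaling. On log2(TPM + 1), which understates differences of low genes, the median difference of replicate 2 minus replicate 1 was 0.29 over the 80 members at a mean of 1 TPM or more, and 0.23 over all 10467 such protein-coding genes. Of the members 64 of 80 were higher in replicate 2, against 71.7% of those genes. With counts scaled by TMM factors the medians were -0.015 and 0.016, and 38 of 80 (47.5%) were higher, against 51.7%. Differences are therefore given relative to the scaling. On log2(TPM + 1), none of the 80 members was at least 2-fold higher in replicate 2 (0.0%, against 2.56% of protein-coding genes). With a pseudocount of 0.1, 2 members passed, against 5.75% of protein-coding genes: Atp5j at 16.35 and 33.30 TPM and Atp5mpl, a small subunit gene, at 33.41 and 67.40 TPM. Atp5j, with 756 and 1396 counts, overlaps Gabpa on the other strand, which held 4575 and 5461, and whether counting used strand is not known. At least 2-fold lower on log2(TPM + 1) were 2 of 80 (2.5%, against 0.535%). By TMM the same counts of members, 0 and 2, stood against 1.72% and 2.6% of protein-coding genes, so the share of members 2-fold lower was near the background on that scale.

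Both of these 2 are paralogs of complex IV. Cox6b2, at chr7:4751792-4753094 on the minus strand, had 25.07 and 10.78 TPM on 717 and 287 expected counts, a log2 difference of -1.15 by TPM and -1.42 by TMM. Ndufa4l2, at chr10:127514967-127517154 on the plus strand, had 3.99 and 1.18 TPM on 249 and 70 counts, a log2 difference of -1.19 by TPM and -1.56 by TMM. Ndufa4l2 lies across Shmt2 on the other strand, which held 4242 and 3887 counts, and the sources used here do not say whether counting used strand. Their ubiquitous partners were closer between libraries, with Cox6b1 at -0.01 and Ndufa4 at 0.47 by TPM. A test of these differences is not possible with 1 library on each side.

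By complex, the median difference by TPM was 0.49 in complex V, with 16 of its 16 genes higher in replicate 2. It was 0.16 in complex IV, with 8 of 15, against 71.7% of protein-coding genes. By TMM the median was 0.21 in complex V, with 12 of 16 genes higher, and -0.14 in complex IV, with 3 of 15 higher, against 51.7% of protein-coding genes. Complex I had 0.28 by TPM and -0.11 by TMM. By median level, complex IV was above complex V in replicate 1 and below it in replicate 2, but without the tissue-specific paralogs it was above in both. Of the 7 feeder fibroblast markers with a mean of 1 TPM or more, 6 were higher in replicate 2 by TPM and 6 by TMM. The shares over protein-coding genes were 71.7% and 51.7%. The summed level of all 10 was 49.3 and 158.3 TPM, led by Acta2 at 33.04 and 100.23 TPM. Thy1 was lower, at 2.27 and 1.62 TPM, and Lum was at 0. Their part in these differences was not tested.

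**Figure D4:**
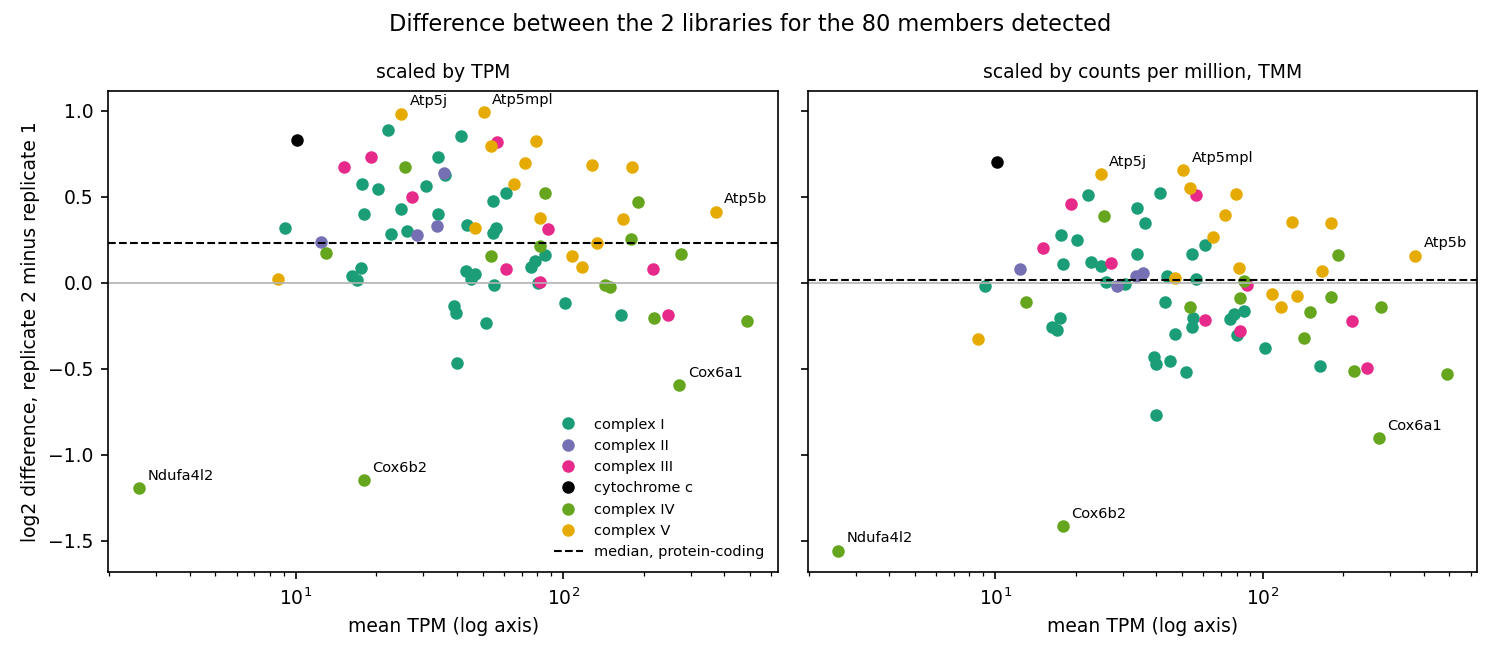
Log2 difference of replicate 2 minus replicate 1 against mean TPM on a log axis for the 80 detected members, by TPM on the left and by TMM-scaled counts on the right, coloured by complex, with the dashed line at the median of protein-coding genes. Cox6b2 and Ndufa4l2 stand below the rest in both panels, and all 16 genes of complex V lie above 0 in the left panel.

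The starts of these genes were read for letters named after factors of respiratory gene control. RefSeq promoter windows (GRCm38.p6) of 250 bases before to 50 after the start were found for 69 of 86 members, with 74 windows. The letters were searched on both strands: GCATGCG for NRF1, the nuclear respiratory factor; CCGGAAG for ETS factors, among them GABP; AAGATGG for YY1; GGGCGG for Sp1; CCAAT for NF-Y; AAGGTCA for the oestrogen-related receptors, ERR; and TATAAA for TATA. Each match describes the letters only. The NRF1 letters read nearly the same on both strands, so 1 place often matches both.

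NRF1 letters were in 12 of 69 members (17.4%), against 5.17% of 16493 protein-coding genes and 8.09% of the 7999 detected ones. ERR letters were in 8 (11.6%), against 4.60% and 3.54%, and YY1 letters in 11 (15.9%), against 7.23% and 9.06%. ETS letters were in 16 (23.2%), against 13.4% of all but 22.9% of detected genes. Sp1 letters were less frequent, with 29 of 69 (42.0%) against 51.2% and 72.2%. NF-Y letters, at 44.9% against 42.3% and 44.4%, and TATA letters, at 10.1% against 14.4% and 8.21%, were near the background. These are shares of genes with the letters in any window, and members had 74 windows for 69 genes against 10272 for 7999 detected genes. By window, for members against detected genes, ETS letters were in 21.6% against 19.5% and Sp1 letters in 40.5% against 65.4%. NF-Y letters were in 43.2% against 38.6% and TATA letters in 10.8% against 6.69%. The median GC content was 57.5% in the members' windows and 61.3% in those of detected genes. At least 1 of NRF1, ETS and YY1 letters was in 32 members (46.4%), against 23.1% of protein-coding and 35.4% of detected genes, and Atp5j alone among members holds them all.

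**Figure D5:**
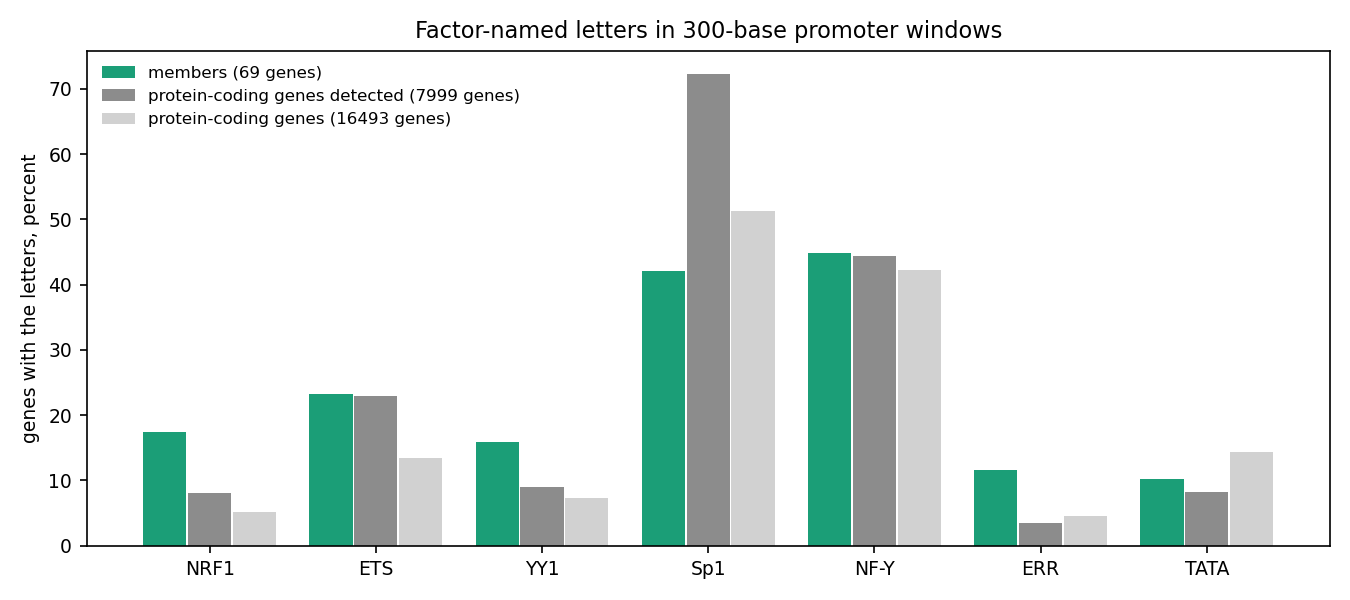
Share of genes, in percent, whose 300-base promoter window holds each set of letters on either strand, for 69 members (green), 7999 detected protein-coding genes (dark grey) and 16493 protein-coding genes (light grey). NRF1, YY1 and ERR bars are higher for members than for both grey sets, and the Sp1 bar is lower than both.

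Of these windows 4 are shown from 5′ to 3′, with the NRF1, ETS, YY1, ERR and TATA letters in capitals. Atp5j, a gene of the stalk of complex V at 16.35 and 33.30 TPM, holds the letters of NRF1, ETS and YY1. Uqcr11 is the highest gene of complex III and holds those of NRF1 and ETS. Cox8a and Cox8b are paralogs of which Cox8a alone was detected; its window holds the ETS letters at more than 1 place, and the window of Cox8b holds only the TATA letters among those in capitals:
Atp5j promoter, chr16:84834927-84835226, minus strand: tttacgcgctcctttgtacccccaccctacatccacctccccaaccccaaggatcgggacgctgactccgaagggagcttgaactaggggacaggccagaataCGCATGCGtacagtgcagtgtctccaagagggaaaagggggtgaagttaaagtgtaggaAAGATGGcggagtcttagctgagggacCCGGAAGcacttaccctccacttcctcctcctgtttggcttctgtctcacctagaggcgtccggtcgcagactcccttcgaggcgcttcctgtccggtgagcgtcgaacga
Uqcr11 promoter, chr10:80406772-80407071, minus strand: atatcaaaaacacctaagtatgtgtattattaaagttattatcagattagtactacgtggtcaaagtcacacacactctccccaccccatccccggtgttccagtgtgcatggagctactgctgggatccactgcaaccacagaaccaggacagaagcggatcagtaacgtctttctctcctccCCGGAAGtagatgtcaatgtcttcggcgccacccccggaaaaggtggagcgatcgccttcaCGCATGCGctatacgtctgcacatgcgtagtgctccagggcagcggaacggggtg
Cox8a promoter, chr19:7217567-7217866, minus strand: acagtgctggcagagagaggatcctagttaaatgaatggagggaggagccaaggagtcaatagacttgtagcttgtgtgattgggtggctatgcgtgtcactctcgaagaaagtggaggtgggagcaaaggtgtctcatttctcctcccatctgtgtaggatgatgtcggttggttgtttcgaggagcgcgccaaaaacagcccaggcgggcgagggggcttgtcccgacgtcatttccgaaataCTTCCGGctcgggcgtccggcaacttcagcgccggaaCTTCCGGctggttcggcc
Cox8b promoter, chr7:140900397-140900696, minus strand: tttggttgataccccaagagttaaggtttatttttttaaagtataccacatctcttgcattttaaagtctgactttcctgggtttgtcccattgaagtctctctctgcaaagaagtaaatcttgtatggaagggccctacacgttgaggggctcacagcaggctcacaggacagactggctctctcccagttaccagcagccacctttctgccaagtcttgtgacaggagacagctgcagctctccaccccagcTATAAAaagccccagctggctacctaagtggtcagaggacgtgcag
A second window of Atp5j, also in the table, holds none of these letters.

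YY1 letters contain ATG, and in 8 of the 11 members that hold them they overlap the annotated start codon, 22 to 38 bases after the RefSeq start. Of all matches in protein-coding genes 16.7% did so, and of those in detected genes 21.1%, against 72.7% of the members' matches. The window ends 50 bases after the RefSeq start, so any start codon overlapped in it lies no further behind, in members and background alike. Of the 8 genes 7 belong to complex I and the other, Atp5j2, to complex V. Their surroundings are shown with the letters in capitals:
Atp5j2, chr5:145191508-145191533, minus strand: ggacaccaggacttcAAGATGGcgtc
Ndufa3, chr7:3617380-3617405, plus strand: gtcgccgccaagaacAAGATGGccgg
Ndufa9, chr6:126849105-126849130, minus strand: gaggcattgtgggagAAGATGGcggc
Ndufb8, chr19:44555394-44555419, minus strand: accgcggagaaggtgAAGATGGctgc
Ndufc1, chr3:51408923-51408948, minus strand: cggagcctgcggaacAAGATGGcgcc
Ndufs4, chr13:114388049-114388074, minus strand: gcgtttgcctacaggAAGATGGcggc
Ndufs6, chr13:73328439-73328464, minus strand: tcaagggtcaccggcAAGATGGcggc
Ndufs7, chr10:80249458-80249483, plus strand: ctgaaggccgaggccAAGATGGcggc
The level of these 8 genes ran from 16.28 TPM for Ndufs4 to 117.7 TPM for Atp5j2 as means, so the letters do not go with 1 level.

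Paired starts were also common. Of 86 members 19 (22.1%) lie head to head with another protein-coding gene within 1000 bases, against 6.83% of protein-coding genes, and 22.5% of detected members against 11.4% of detected genes. Ndufa7 lies 10 bases from Rps28, a ribosomal protein gene at 1222.23 and 1271.97 TPM. Sdhd lies 98 bases from Timm8b, an import factor gene of mitochondria, at 24.96 and 40.62 TPM. Others face a gene that was barely measured, such as Uqcrq and Gdf9, a gene known from oocytes, at 0.04 and 0.11 TPM.

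Apart from subunits that the symbols leave out, genes that serve the same complexes were lower in median than the subunits. Of 46 assembly factors 43 were detected, with a median of 5.55 and 7.38 TPM. The highest were Cox17, a copper chaperone of complex IV, at 35.48 and 57.64 TPM and Uqcc2 of complex III at 33.72 and 45.99 TPM, and Pet117 was listed at 0. All 13 citric acid cycle genes were detected, with a median of 13.4 and 23.2 TPM. All 77 mitochondrial ribosomal protein genes were detected, with a median of 11.4 and 16.6 TPM. Of 12 regulators of respiratory genes 10 were detected, led by Polrmt, the RNA polymerase of mitochondria, at 30.35 and 25.31 TPM and Sp1 at 26.34 and 28.59 TPM. Ppargc1a, the coactivator known from muscle and brown fat, had 0 and 0.02 TPM. Of 5 listed subunits that the symbols leave out, 4 were found and all 4 were detected, with a median of 31.0 and 55.6 TPM. The median over the 86 members was 42.2 and 50.65 TPM. The 4 were Atpif1 at 95.34 and 112.18 TPM, Usmg5 at 39.91 and 73.71 TPM, Ndufab1 at 22.09 and 37.45 TPM, and Cyct, the testis cytochrome c, at 1.70 and 2.15 TPM.

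The 13 subunit genes of mitochondrial DNA summed to 6933 and 9487 TPM, against 6042 and 6819 TPM for the 86 nuclear genes. By gene they ran from 45.1 to 2411.83 TPM in replicate 1 and from 18.56 to 3220.1 TPM in replicate 2. The low end in replicate 2 was mt-Co2, a catalytic subunit of complex IV, at 616.78 and 18.56 TPM, named after its values were seen. A nuclear row with identical bases over nearly its whole length, Gm28661 on chromosome 1, held 1012.33 and 1979.95 TPM, and mt-Co2 with its copies summed to 1630 and 2000 TPM. In all, 6 of the 13 genes had nuclear copies at 95% identity or more, which together held 3563 and 5134 TPM, so levels of single mitochondrial genes depend on how reads were shared out.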

How the data were processed

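Per the deposited text file, the authors aligned reads to mm10 using annotation M4, and each library was quantified through its transcriptome alignments. For aligner, quantifier and strand setting, names were not given in the sources used here. Per the file headers, the tables hold an expected count, which is fractional where the authors shared a read out. The deposited TPM was scaled by the authors over all rows of a table. The deposited FPKM was scaled by the authors per effective length and library size. The deposited percent gives each transcript's part of its gene. Lengths and effective lengths are in bases. The deposited posterior mean TPM and interval bounds were used as the authors' signal values. Short rows gain in TPM from the effective length, which was 77.8% of the length over the members and 93.2% over detected protein-coding genes.

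Members and lists were chosen with earlier results of these data known. Symbols and coordinates came from GENCODE M21 (GRCm38). Values in each library were printed for paralogs, the 3 highest and 2 lowest genes of the larger complexes, and genes 2-fold apart; further genes were named after their values were seen. Expected counts were rounded only for TMM (edgeR 4.0.16, rows with 10 counts or more over both libraries) and DESeq2 1.42.0 size factors, in R 4.3.3. Copies came from BLAST 2.17.0. Biopython 1.88, scipy 1.17.1, matplotlib 3.10.9, pandas 2.3.3 and numpy 2.4.6 under Python 3.11.15 did the rest. The size factors and the letter search were tested on simulated data. No p-value was computed. Alternatives were posterior mean TPM, FPKM, TPM rescaled to protein-coding genes, count per annotated length, other limits and pseudocounts, and each library alone.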

Additional observations from a re-analysis of the deposited data

Results flagged for a closer look

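Of 10 pseudogene rows whose symbols match the rule, 2 held more than 3 expected counts in a library, and they are outside the 86 genes. Ndufb4c had 1056.3 and 1096.62 expected counts in replicates 1 and 2, and Cox6c2 had 5.61 and 11.18. There are no control samples, so the limit was what a count of 0 allows. The other 8 had at most 3 counts in a library, and 4 had none in both.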

How the results depend on the processing

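No paired analysis was possible because the series holds 1 group. The 80 genes detected stayed 80 with either library alone and with the TPM of near-identical copies added, an alternative chosen after seeing the data, and ranged from 79 to 83 over all alternatives.

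Changes of unit moved every complex median. For complexes I to V the means were 72.8, 52.0, 112.2, 113.2 and 126.4 in FPKM. They were 206.2, 146.8, 317.0, 320.1 and 354.5 with TPM rescaled to protein-coding genes. They were 78.2, 63.2, 124.5, 123.7 and 145.1 by count per annotated length, where complex IV came just below complex III. As means over members, complexes I, III, IV and V stood at 45.8, 90.1, 110.2 and 99.5 TPM, so complex IV came above complex V. It did so too over detected members, at 143.5 against 80.5 TPM, and without tissue-specific paralogs, at 163.9. With 1 library left out the medians ranged from 40.9 to 44.2 TPM in complex I, 26.7 to 34.4 in II, 59.3 to 72.3 in III, 60.3 to 72.5 in IV and 56.9 to 92.5 in V.

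The median log2 difference of 0.29 turned to -0.015 with TMM and became 0.0061 with DESeq2 factors and 0.0022 with rescaled TPM; by construction these remove the shift common to most genes. With a pseudocount of 0.1, 2 members were 2-fold higher, Atp5mpl and Atp5j, against 5.75% of protein-coding genes, and at a mean of 5 TPM or more 1 was 2-fold lower. On the given strand alone, ETS letters were in 5 members, Sp1 in 17, NF-Y in 17, ERR in 3 and TATA in 3. ETS was then at 7.25% of members, against 7.41% of protein-coding and 13.01% of detected genes. Sp1 was at 24.6%, against 35.0% and 50.3%, and NF-Y at 24.6%, against 24.4% and 26.4%. ERR was at 4.35%, against 2.35% and 1.88%, and TATA at 4.35%, against 9.58% and 5.11%. The leading paralog was the same in all 8 sets under each alternative planned. With the TPM of copies added, Cox7a2l passed Cox7a2 in replicate 2 and Atp5g2 passed Atp5g1 in replicate 1. Both sums weigh reads on the shorter copy rows more, so they do not show the order of the pooled reads.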
